A study of Mus musculus with 10 samples.

Results

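The genes described here encode the constitutive proteasome, the protease that degrades ubiquitin-tagged proteins in every cell, together with its assembly chaperones and its alternative caps. They were chosen by symbol as the protein-coding genes in the table named Psma to Psmg followed by a number, without the immunoproteasome genes Psmb8, Psmb9 and Psmb10. The rule found 48 of the 55359 genes. Lineage-negative (Lin-) cells of the bone marrow, which a depletion kit leaves after mature blood cells are removed, were sequenced from Dhx9f/f mice (WT, 5 libraries) and Dhx9f/f;MX1 mice (cKO, 5 libraries), and both groups carry the floxed Dhx9 alleles. In the cKO mice Cre is driven by the interferon-inducible Mx1 promoter, and by the study's general methods poly(I:C), a double-stranded RNA mimic, induces it, with mice analyzed a week after the first dose. The age and sex of the sequenced mice, and whether the WT mice among them were given poly(I:C), are not stated in the sources used here. If the WT mice were not, a response to poly(I:C) itself cannot be told apart from genotype. Xist, an RNA of female cells, was above 1 FPKM in WT replicates 3, 4 and 5 and in no library labelled cKO. Sex may thus be partly confounded with the label. Depth was 13840000 to 18710000 fragments per library. The labels number the replicates but name no animals, so p-values measure the spread between these samples.

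The targeted gene went against the labels. Dhx9, which encodes an RNA and DNA helicase, averaged 69.7 ± 2.84 FPKM (SD, n = 5) under the WT label and 139.9 ± 12.0 FPKM under the cKO label, although the labels give the cKO genotype as a Dhx9 knock down. FPKM are read fragments normalized by gene length and library size, and a value for the whole gene does not show which exons were read. Whether any libraries carry the wrong label was not tested, and all directions below are stated by label. Gene positions are those of GENCODE vM39 on GRCm39. The progenitor marker Kit was read at 36.56 to 54.36 FPKM in the WT-labelled libraries and 18.73 to 31.11 FPKM in those labelled cKO. The lineage genes Cd3e and Ly6g were at 0.60 and 1.32 FPKM at most.

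The 26S proteasome consists of a barrel, the 20S core, capped by the 19S regulatory particle. The core is a stack of rings of α subunits, which gate entry, and β subunits, of which Psmb5, Psmb6 and Psmb7 carry the chymotrypsin-like, caspase-like and trypsin-like active sites. The base of the regulatory particle holds the ATPase ring that unfolds substrates, and its lid holds the deubiquitinase Psmd14. Dedicated chaperones assemble the α ring and the base, and the caps PA28 and PA200 can replace the 19S particle. In immune cells, and after interferon, Psmb8, Psmb9 and Psmb10 take the catalytic places, giving the immunoproteasome. Blood progenitors depend on proteolysis for the turnover of cell cycle and survival proteins, and maturing red cells use it to clear protein.

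Transcription of subunit genes is known to be driven through the antioxidant response element, bound by NRF1 or NRF2 with small MAF proteins, and through CCAAT boxes, bound by NF-Y. Because most members moved in one direction in the data described below, the 250 bases upstream of the annotated start were read from GRCm39 for 4 of them, chosen as 3 of the 4 largest rises and the most negative difference. Capitals mark TGACNNNGC, the core of the antioxidant response element, and CCAAT, each searched on both strands, where ATTGG is CCAAT on the other strand.
Psmd9, chr5:123366003-123366252, plus strand: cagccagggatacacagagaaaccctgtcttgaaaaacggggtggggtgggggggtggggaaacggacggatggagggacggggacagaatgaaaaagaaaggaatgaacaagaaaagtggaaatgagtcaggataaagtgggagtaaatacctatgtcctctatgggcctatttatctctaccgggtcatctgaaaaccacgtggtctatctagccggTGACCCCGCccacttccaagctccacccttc
Psme3, chr11:101206527-101206776, plus strand: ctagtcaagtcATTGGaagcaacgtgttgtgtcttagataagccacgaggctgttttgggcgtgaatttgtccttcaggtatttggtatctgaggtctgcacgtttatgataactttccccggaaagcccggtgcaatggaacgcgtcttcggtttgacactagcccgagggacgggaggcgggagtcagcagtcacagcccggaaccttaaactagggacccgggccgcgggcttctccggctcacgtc
Psmc2, chr5:21990051-21990300, plus strand: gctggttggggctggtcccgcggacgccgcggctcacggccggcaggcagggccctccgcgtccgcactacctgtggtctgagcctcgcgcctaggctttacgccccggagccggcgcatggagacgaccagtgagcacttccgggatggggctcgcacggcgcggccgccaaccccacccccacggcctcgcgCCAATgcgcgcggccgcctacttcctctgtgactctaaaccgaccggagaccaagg
Psme2, chr14:55828545-55828794, minus strand: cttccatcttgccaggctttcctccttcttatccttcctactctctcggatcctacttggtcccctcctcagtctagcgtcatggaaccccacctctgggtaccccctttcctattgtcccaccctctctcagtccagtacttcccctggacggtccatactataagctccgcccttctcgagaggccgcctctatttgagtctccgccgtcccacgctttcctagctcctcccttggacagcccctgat

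In these windows, Psmd9 held TGACNNNGC 31 to 23 bases before its start, Psmc2 held CCAAT 56 to 52 bases before its start, Psme3 held CCAAT on the other strand 239 to 235 bases before its start, and Psme2 held neither. The active-site genes Psmb5 and Psmb6 held TGACNNNGC close to the start, at 18 to 10 and 9 to 1 bases before it. It was also found for Psmc6, Psmd7, Psmd12 and Psmg2, all on the other strand. TGACNNNGC stood in 5 of the 31 promoters of core and regulatory particle subunits (16.1%), against 10.6% of 12877 promoters of protein-coding genes tested. CCAAT stood in 14 of the 31 (45.2%), against 36.3% of all. Over all 48 members the shares were 14.6% for TGACNNNGC and 39.6% for CCAAT. Of the 7 chaperone promoters, 2 held TGACNNNGC and 1 held CCAAT. In the immunoproteasome promoters 0 of 3 held either. These matches are letters in a window and were not tested for use.

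Of the 48 members, 47 averaged 0.1 FPKM or more and were tested. The exception was Psmb11, the thymus-specific β subunit, listed at 0 to 0.03 FPKM. Among the 47, 36 were higher in the libraries labelled cKO at an adjusted p under 0.05 and 0 were lower, where 16.7% of all 18742 genes tested were higher and 28.3% lower. Of all calls 37.2% were higher, a share that became 54.5% with quantile normalization, under which 25.1% of all genes and 36 of the 47 members were higher. Members are highly expressed genes, and among the 5512 genes averaging 10 FPKM or more the shares were 31.7% higher and 23.7% lower. The rises were modest. The median log2 difference of the members was 0.34, a fold of 1.27, with a range from -0.21 to 0.89, beside medians of -0.11 over all genes tested and 0.08 over those averaging 10 FPKM or more. The median of the members thus exceeded that of all genes by 0.45, and by 0.22 with quantile normalization. None of the members reached 2-fold, the size the study required of a called gene, where 4.60% of all genes were higher and 16.8% lower by both criteria. In 28 members every library labelled cKO was above every library labelled WT, against 10.6% of all genes and 21.0% of those averaging 10 FPKM or more, and 0 members had the reverse, against 21.6% of all genes. The values came from limma on log2(FPKM + 0.1). Of the 47 members 44 (93.6%) were above 0, against 43.7% of all genes and 57.6% of those averaging 10 FPKM or more.

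**Figure D1:**
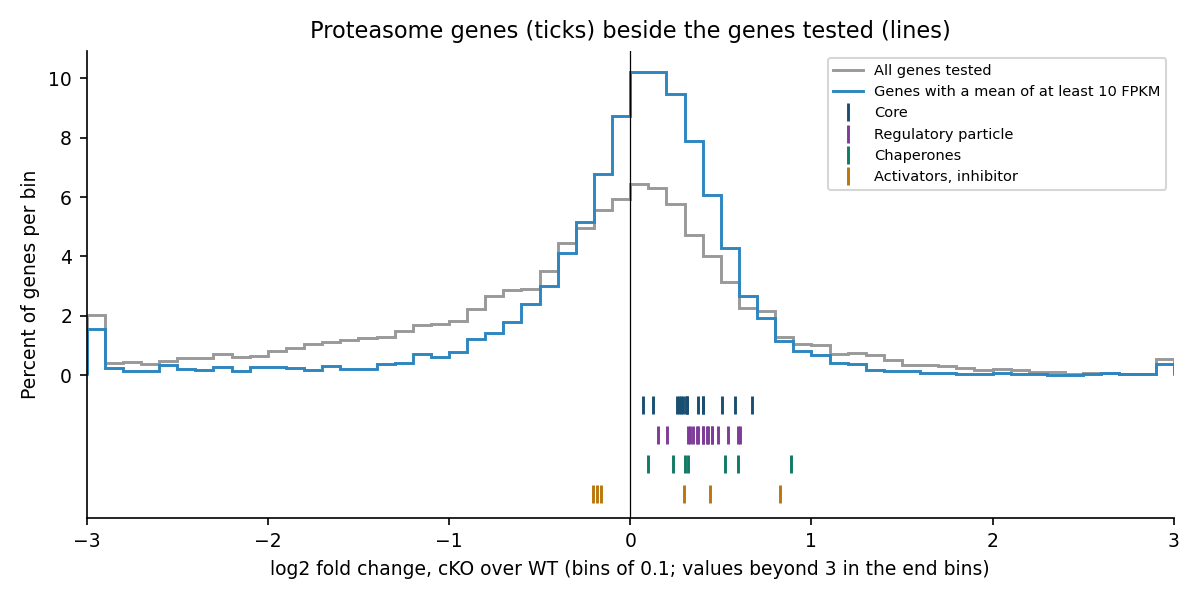
Distribution of the log2 difference (cKO minus WT by label, horizontal axis) as a percentage of genes (vertical axis) for all 18742 genes tested and for the 5512 averaging 10 FPKM or more, with the members tested as ticks by class, except Psmc3ip and Psme3ip1. Most member ticks lie to the right of both medians, -0.11 and 0.08, and the members' own median was 0.34.

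The 31 somatic subunits of the core and the regulatory particle chosen by symbol all had a positive difference, and 29 of them passed the test. Psma7 was an exception after quantile normalization, at -0.031. Adrm1 and Sem1, regulatory particle subunits outside the symbol rule, are not counted here and are given below. The 17 subunits of the regulatory particle gave a median log2 difference of 0.40 (17 of 17 higher), the 14 somatic core subunits 0.31 (12 of 14 higher) and the 7 dedicated chaperones 0.32 (4 of 7 higher). The 6 activator and inhibitor genes gave a median of 0.07 (2 of 6 higher). The count for these 6 was near the share higher among genes averaging 10 FPKM or more, 31.7%. Above the median of all genes, the regulatory particle stood by 0.51 and by 0.23 with quantile normalization, the core by 0.42 and 0.12, and the chaperones by 0.43 and 0.29. These medians describe the classes, and the differences between classes were not tested.

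**Figure D2:**
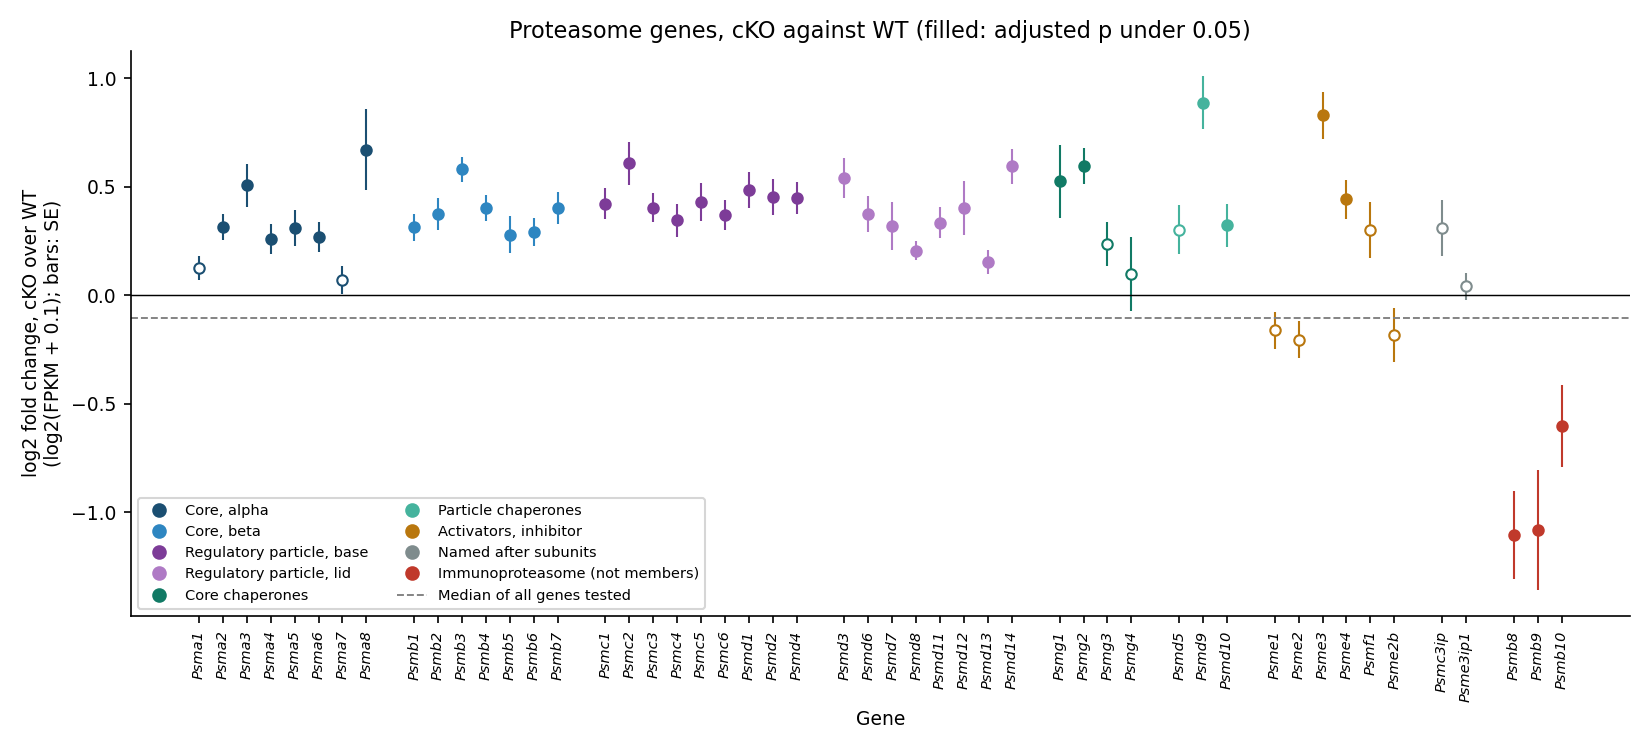
Log2 difference (cKO minus WT by label, vertical axis) of each member tested and of the 3 immunoproteasome genes (horizontal axis, coloured by class), with bars of 1 SE, filled where the limma adjusted p was under 0.05, and a dashed line at the median of all genes tested, -0.11. All core, regulatory particle and chaperone members lie above 0, although Psma7 turned negative with quantile normalization and Psmg4 without WT replicate 1, while Psme1, Psme2, Psme2b and the immunoproteasome genes lie below it.

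Among the α subunits, 5 of the 7 somatic genes were higher, with a median log2 difference of 0.27. Psma3 differed by 0.50 ± 0.0975 (SE, limma adjusted p = 0.00173), the largest of the 7, and Psma2, Psma4, Psma5 and Psma6 by 0.31, 0.26, 0.31 and 0.27. Psma7, the α subunit with the smallest difference, was at 60.40, 67.20, 68.56, 66.85 and 63.37 FPKM in the WT-labelled libraries and 61.50, 72.17, 69.67, 65.45 and 73.94 FPKM in those labelled cKO. The groups overlapped across most of their range, and the difference was 0.07 ± 0.0644 (SE, limma adjusted p = 0.416). Psma1 also did not pass, at 0.12 (limma adjusted p = 0.0832). Psma8, the α subunit of the testis proteasome, was read at low level, 1.85, 1.69, 1.84, 1.52 and 1.71 FPKM in the WT-labelled libraries and 4.11, 2.75, 2, 2.34 and 3.20 FPKM in those labelled cKO. Its groups did not overlap and it differed by 0.67 ± 0.187 (SE, limma adjusted p = 0.0133), although replicate 3 of the libraries labelled cKO was close to the WT range.

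All 7 somatic β subunits were higher, and in 6 of them the groups did not overlap. Psmb5 (ENSMUSG00000022193, chr14:54850776-54855481), with the chymotrypsin-like site, was at 98.49, 114.23, 122.24, 113.25 and 114.41 FPKM in the WT-labelled libraries and 114.53, 138.67, 138.96, 137.30 and 154.70 FPKM in those labelled cKO. Replicate 1 of the latter lay within the WT range and the other four lay above it, with a log2 difference of 0.28 ± 0.0846 (SE, limma adjusted p = 0.0197). Psmb6 (ENSMUSG00000018286, chr11:70416183-70418684), with the caspase-like site, went from 56.50, 59.24, 60.67, 61.87 and 56.36 FPKM to 62.99, 75.23, 76.55, 73.92 and 72.48 FPKM, in the same order of replicates. Here no library labelled cKO fell within the WT range, and the difference was 0.29 ± 0.0633 (SE, limma adjusted p = 0.00347). Psmb7 (ENSMUSG00000026750, chr2:38478044-38534099), with the trypsin-like site, was at 32.67, 36.82, 42.69, 38.78 and 36.09 FPKM against 47.08, 49.74, 50.12, 46.56 and 53.18 FPKM, again without overlap, and differed by 0.40 ± 0.0743 (SE, limma adjusted p = 0.00133). Among the somatic core subunits the largest rise was not in an active-site subunit but in Psmb3, a structural β subunit, at 56.61, 60.36, 64.46, 63.74 and 55.85 FPKM against 89.03, 93.35, 89.10, 92.66 and 85.13 FPKM. Its groups stood well apart, with a difference of 0.58 ± 0.0578 (SE, limma adjusted p = 6.99e-05), a fold of 1.49. Psmb4, another structural β subunit, was at 118.46, 121.87, 138.81, 129.96 and 116.31 FPKM against 167.10, 168.43, 164.66, 163.27 and 160.98 FPKM. The libraries labelled cKO were close to each other and all above the WT range, and it differed by 0.40 ± 0.0579 (SE, limma adjusted p = 3.38e-04). The remaining structural subunits Psmb1 and Psmb2 differed by 0.31 and 0.37, also without overlap.

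The base of the regulatory particle was higher throughout. All 9 of its genes chosen by symbol passed the test, all 9 were without overlap between the groups, and their differences spanned only 0.34 to 0.61. Psmc2 (ENSMUSG00000028932, chr5:21989254-22008796), an ATPase of the ring, had the largest, with 25.44, 29.62, 35.70, 28.93 and 27.51 FPKM in the WT-labelled libraries and 38.50, 50.10, 47.53, 44.82 and 43.06 FPKM in those labelled cKO. The lowest library labelled cKO, replicate 1, was still above the highest labelled WT, replicate 3, and the difference was 0.61 ± 0.0985 (SE, limma adjusted p = 6.32e-04). The smallest in the base was 0.34 (limma adjusted p = 0.00353) for Psmc4, another ATPase. The ATPases in between, Psmc1, Psmc3, Psmc5 and Psmc6, differed by 0.42, 0.40, 0.43 and 0.37. The large scaffold subunits Psmd1 and Psmd2 differed by 0.48 and 0.45, and the ubiquitin receptor Psmd4 by 0.45.

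The 8 lid genes chosen by symbol were also all higher, over a wider range of 0.15 to 0.59, and 5 of them showed no overlap. Sem1, a lid subunit outside the symbol rule, gave -0.28 (limma adjusted p = 0.0536). Psmd14 (ENSMUSG00000026914, chr2:61542026-61631607), the deubiquitinase that removes ubiquitin chains from substrates as they enter, was at 48.36, 54.66, 62.41, 51.70 and 49.42 FPKM against 70.62, 87.05, 84.91, 79.11 and 79.88 FPKM. The highest WT-labelled library was below the lowest labelled cKO, with a difference of 0.59 ± 0.0826 (SE, limma adjusted p = 2.84e-04), a fold of 1.51. The other lid genes without overlap, Psmd3, Psmd6, Psmd8 and Psmd11, differed by 0.54, 0.37, 0.20 and 0.33. At the other end, Psmd13 differed by 0.15 ± 0.0562 (SE, limma adjusted p = 0.0482) with overlapping groups, and its call was lost under 16 of the 21 alternative settings, including the loss of any single library but WT replicate 3 (0.12 to 0.16). Psmd7 (log2 difference 0.32, limma adjusted p = 0.0377) and Psmd12 (log2 difference 0.40, limma adjusted p = 0.0221) overlapped as well. The call of Psmd7 was lost under 14 settings, including the loss of any library but WT replicate 3 and cKO replicate 1 (0.26 to 0.34). That of Psmd12 was lost under 4, without WT replicate 1 or 5 or cKO replicate 2 or 3 (0.33 to 0.38).

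**Figure D3:**
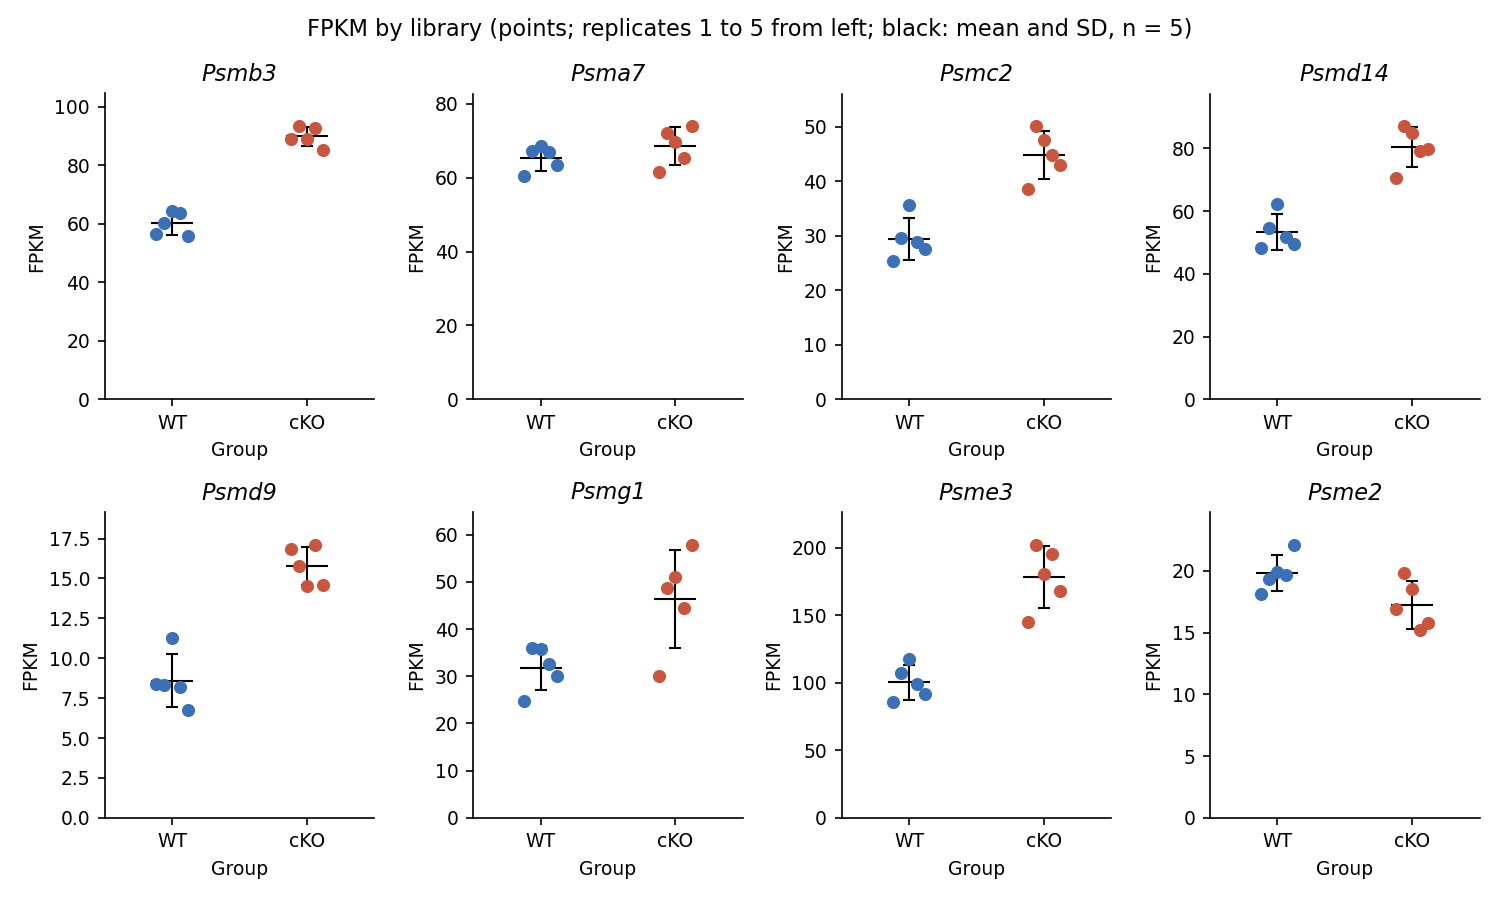
FPKM (vertical axis) of 8 members in each library, as points in the order of replicates 1 to 5 for each label, with the mean and SD in black. Psmb3, Psmc2, Psmd14, Psmd9 and Psme3 show no overlap between labels, while Psma7, Psmg1 and Psme2 do.

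Among the chaperones, 4 of 7 were higher and 0 were lower, where 31.7% and 23.7% of genes averaging 10 FPKM or more were. Psmd9 (ENSMUSG00000029440, chr5:123307476-123388656), which helps the ATPases of the base to assemble, had the largest rise of all members. Its values were 8.36, 8.34, 11.29, 8.18 and 6.77 FPKM under the WT label and 16.85, 15.79, 14.53, 17.11 and 14.61 FPKM under the cKO label. The groups did not overlap and the difference was 0.89 ± 0.121 (SE, limma adjusted p = 2.62e-04), a fold of 1.85. Psmg2, a partner in the pair that builds the α ring, went from 32.12, 35.43, 38.97, 32.04 and 31.60 FPKM to 45.19, 54.79, 52.38, 56.38 and 48.43 FPKM. It too was without overlap, with a difference of 0.59 ± 0.0820 (SE, limma adjusted p = 2.74e-04). Its partner Psmg1 was more scattered, at 24.70, 35.94, 35.76, 32.61 and 29.98 FPKM against 30.05, 48.61, 51.13, 44.45 and 57.86 FPKM. Replicate 1 of the libraries labelled cKO lay inside the WT range, and Psmg1 differed by 0.52 ± 0.168 (SE, limma adjusted p = 0.0252). This call was lost with Xist in the model, at a difference of 0.60 (limma adjusted p = 0.0712), and without WT replicate 1 or 5 or cKO replicate 2, 3 or 5 (0.44 to 0.51). The other pair of α ring chaperones did not pass, Psmg3 at 0.24 (limma adjusted p = 0.0805) and Psmg4 at 0.10 (limma adjusted p = 0.674). Psmd5, a further base chaperone, was just short of the threshold at 0.30 (limma adjusted p = 0.0504) and passed it without WT replicate 3 (0.34) or cKO replicate 1 (0.40).

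Psmd10 (ENSMUSG00000031429, chrX:139847687-139857477), or gankyrin, a base chaperone on the X chromosome, was at 20.10, 22.99, 26.55, 25.10 and 20.23 FPKM against 33.45, 26.89, 28.67, 28.40 and 26.00 FPKM. Its groups overlapped slightly, with a difference of 0.32 ± 0.0980 (SE, limma adjusted p = 0.0203). Xist, the RNA that coats the inactive X of female cells, was above 1 FPKM in WT replicates 3, 4 and 5 and in no library labelled cKO. Against the 2 WT libraries without Xist alone, the difference of Psmd10 was 0.41 (limma adjusted p = 0.0402), and without WT replicate 5 it was 0.28 and not past the threshold. Over all members, 28 of the 47 were higher against the WT libraries without Xist, and 33 with Xist as a covariate, with 0 lower in either, where 8.82% and 10.9% of all genes were higher. Psma4, Psmb5, Psmd8 and Psme4 no longer passed against the WT libraries without Xist, at 0.33, 0.36, 0.21 and 0.41, and Psma8 passed in neither, at 0.63 in both. Psma4 and Psmb5 also lost their calls with quantile normalization, at 0.15 and 0.18.

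The caps that replace the regulatory particle did not move together. Psme3 (ENSMUSG00000078652, chr11:101206777-101215813), or PA28γ, the nuclear cap, was at 85.58, 107.48, 117.85, 98.83 and 92.01 FPKM in the WT-labelled libraries and 144.78, 202.35, 180.96, 195.70 and 167.87 FPKM in those labelled cKO. This was a rise without overlap of 0.83 ± 0.110 (SE, limma adjusted p = 2.20e-04), a fold of 1.78. Psme4, or PA200, a cap linked to histone breakdown, rose by 0.44 ± 0.0893 (SE, limma adjusted p = 0.00227), also without overlap. By contrast, the interferon-inducible cap PA28αβ had negative differences that did not pass the test. Psme1 was at 61.90, 67.21, 71.86, 72.56 and 70.73 FPKM against 65.98, 60.15, 71.98, 54.24 and 56.25 FPKM, a difference of -0.16 ± 0.0840 (SE, limma adjusted p = 0.139). Psme2 was at 18.14, 19.35, 19.91, 19.69 and 22.12 FPKM against 16.88, 19.82, 18.54, 15.19 and 15.81 FPKM, a difference of -0.21 ± 0.0865 (SE, limma adjusted p = 0.0756). In both, the libraries labelled cKO reached into the WT range. Psme1 passed as lower without cKO replicate 3 (-0.22) and Psme2 without cKO replicate 2 (-0.26). Psme2b, a close copy of Psme2 whose reads may be shared with it, gave -0.18 (limma adjusted p = 0.248), so how reads divide between the copies is uncertain. Psmf1, the proteasome inhibitor PI31, gave 0.30 (limma adjusted p = 0.0835).

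A pair of genes entered through the symbol rule but encode no proteasome part. Psmc3ip, a recombination factor, was at 10.43, 13.77, 15.33, 10.52 and 10.39 FPKM against 12.92, 16.06, 16.52, 13.63 and 15.17 FPKM, with overlapping groups and a difference of 0.31 (limma adjusted p = 0.0707). Psme3ip1, which binds PA28γ, gave 0.04 (limma adjusted p = 0.641).

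The immunoproteasome genes moved the other way, with 3 of 3 lower. Of all genes tested 28.3% were lower, and of those averaging 10 FPKM or more 23.7%. Psmb8 (ENSMUSG00000024338, chr17:34416690-34420428), the counterpart of Psmb5, was at 37.13, 36.56, 32.47, 45 and 42.95 FPKM in the WT-labelled libraries and 14.98, 17.60, 29.61, 12.14 and 19.14 FPKM in those labelled cKO, without overlap and with a difference of -1.11 ± 0.202 (SE, limma adjusted p = 0.00125). Psmb9, the counterpart of Psmb6, was at 13.99, 18.26, 19.90, 20.11 and 19.18 FPKM against 9.83, 7.84, 16.56, 4.46 and 7.79 FPKM, a difference of -1.08 ± 0.277 (SE, limma adjusted p = 0.00849). Psmb10, the counterpart of Psmb7, was at 24.96, 35.90, 37.86, 32.29 and 33.11 FPKM against 18.99, 20.33, 33.18, 14.93 and 23.21 FPKM, a difference of -0.60 ± 0.190 (SE, limma adjusted p = 0.0236). In all 3 genes replicate 3 was the highest of the libraries labelled cKO, and in Psmb9 and Psmb10 it lay within the WT range. The call of Psmb10 was lost without WT replicate 2 or 3 or cKO replicate 2 or 4 (-0.59 to -0.48), and those of Psmb9 and Psmb10 with Xist as a covariate (-0.90 and -0.49).

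A ratio taken within a library does not depend on how the library was scaled, so each active-site subunit was divided by its immunoproteasome counterpart. Psmb5 over Psmb8 was 2.65, 3.12, 3.76, 2.52 and 2.66 in the libraries labelled WT and 7.65, 7.88, 4.69, 11.3 and 8.08 in those labelled cKO. The mean went from 2.94 ± 0.513 to 7.92 ± 2.35 (SD, n = 5 each). Psmb6 over Psmb9 was 4.04, 3.24, 3.05, 3.08 and 2.94 against 6.41, 9.60, 4.62, 16.6 and 9.30. Psmb7 over Psmb10 was 1.31, 1.03, 1.13, 1.20 and 1.09 against 2.48, 2.45, 1.51, 3.12 and 2.29. In all 3 ratios every library labelled cKO was above every library labelled WT, and on the log2(FPKM + 0.1) scale the mean ratio was higher by folds of 2.61, 2.59 and 2.01. Psme3 over Psme1 behaved likewise, from 1.46 ± 0.152 to 2.93 ± 0.584, a fold of 1.99 on that scale. For each of the 4 ratios the two-sided exact permutation test on that scale gave p = 0.00794, the smallest this design allows, and the value was the same after Benjamini-Hochberg adjustment over the 4. A ratio alone shows an unequal change of its 2 genes and does not show which one moved. In the single-gene fits, Psmb8, Psmb9 and Psmb10 differed by -1.11, -1.08 and -0.60, against 0.28, 0.29 and 0.40 for Psmb5, Psmb6 and Psmb7. Psme3 differed by 0.83 and Psme1 by -0.16, and these single-gene values depend on the scaling.

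**Figure D4:**
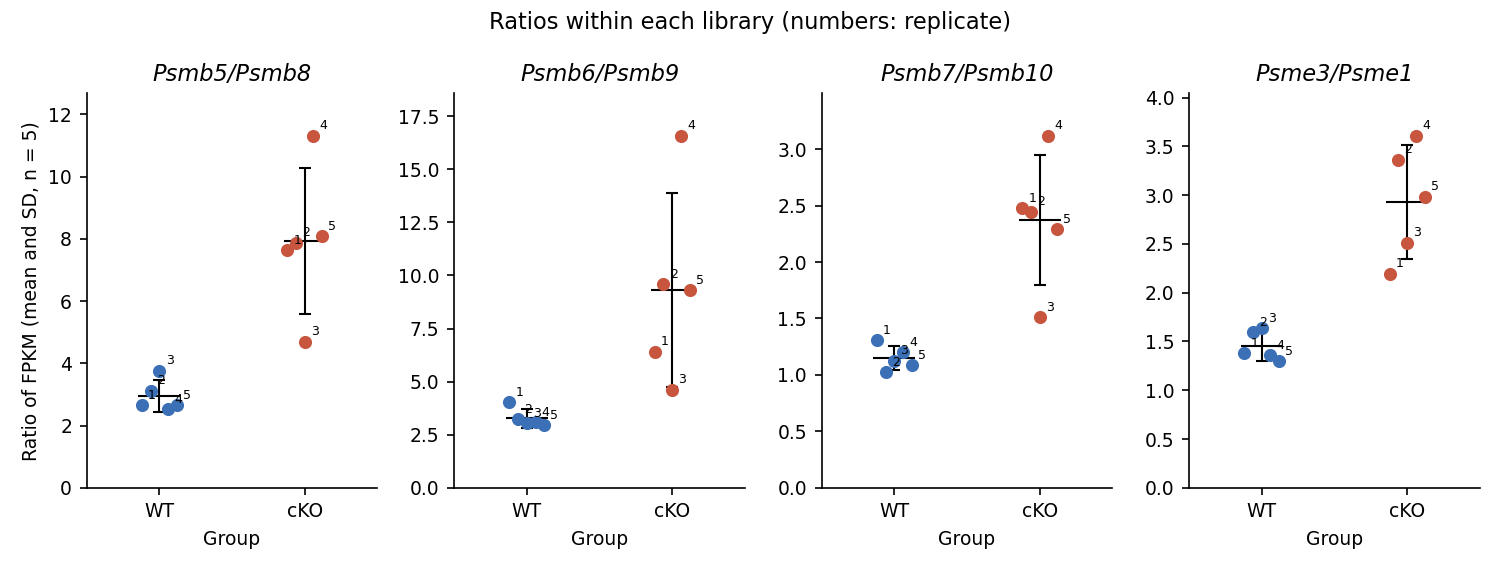
Ratio of FPKM within each library (vertical axis) for 3 active-site subunits over their immunoproteasome counterparts and for Psme3 over Psme1, as points in the order of replicates 1 to 5 for each label, with mean and SD. All points labelled cKO lie above all points labelled WT, and replicate 3 is the lowest cKO point in the first 3 panels.

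In bulk RNA, fewer cells of a type and less RNA per cell cannot be told apart, and the makeup of the samples moved with the label. Of 21 red cell markers tested 19 rose in the libraries labelled cKO, to a summed level of 2667 to 4311 FPKM against 843 to 2086 FPKM. Of 15 monocyte and dendritic cell markers 13 were lower, with a sum of 15.9 to 315 FPKM against 1040 to 1774 FPKM, and of 13 progenitor markers 12 were lower, at 171 to 214 FPKM against 294 to 375 FPKM. Lower calls also outnumbered higher ones for megakaryocytes (10 of 10), mast cells and basophils (6 of 7), neutrophils (5 of 12), B cells (5 of 8), T and NK cells (5 of 11) and stromal or endothelial cells (6 of 8, with 1 higher). Over all genes tested 16.7% were higher and 28.3% lower. The groups overlapped in 7 of the 12 neutrophil markers and in 7 of the 11 T and NK cell markers. None of the defining markers was at 0 in every library. On the scale of mean log2 deviation from the WT mean, the monocyte and dendritic cell list stood at -3.66, -4.40, -1.97, -5.51 and -1.80 in replicates 1 to 5 labelled cKO, and the 3 immunoproteasome genes at -1.0, -1.0, -0.16, -1.59 and -0.90. Replicate 4 was the lowest for both, and replicate 3 was the highest for the immunoproteasome genes and next to the highest, replicate 5, for the list. The part of these changes in the proteasome values was not tested.

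The libraries within a label also differed together. Each library was scored by the mean log2 deviation of the 31 subunits from the WT mean. The libraries labelled WT ranged from -0.15 in replicate 1 to 0.18 in replicate 3, and those labelled cKO from 0.27 in replicate 1 to 0.42 in replicate 2. The groups did not overlap. Replicate 3 was the highest of the libraries labelled WT for 28 of the 31 subunits, and replicate 1 was the lowest for 25. WT replicate 3 was also the highest of its group for the red cell list, at 0.69 on the same scale, where the other libraries labelled WT lay between -0.34 and 0.035 and those labelled cKO between 0.99 and 1.51. Replicate 1 of the libraries labelled cKO was the lowest of its group for 17 of the 31 subunits but the highest for the red cell list. Without WT replicate 3, 40 members were higher, and without WT replicate 5, 31 were.

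**Figure D5:**
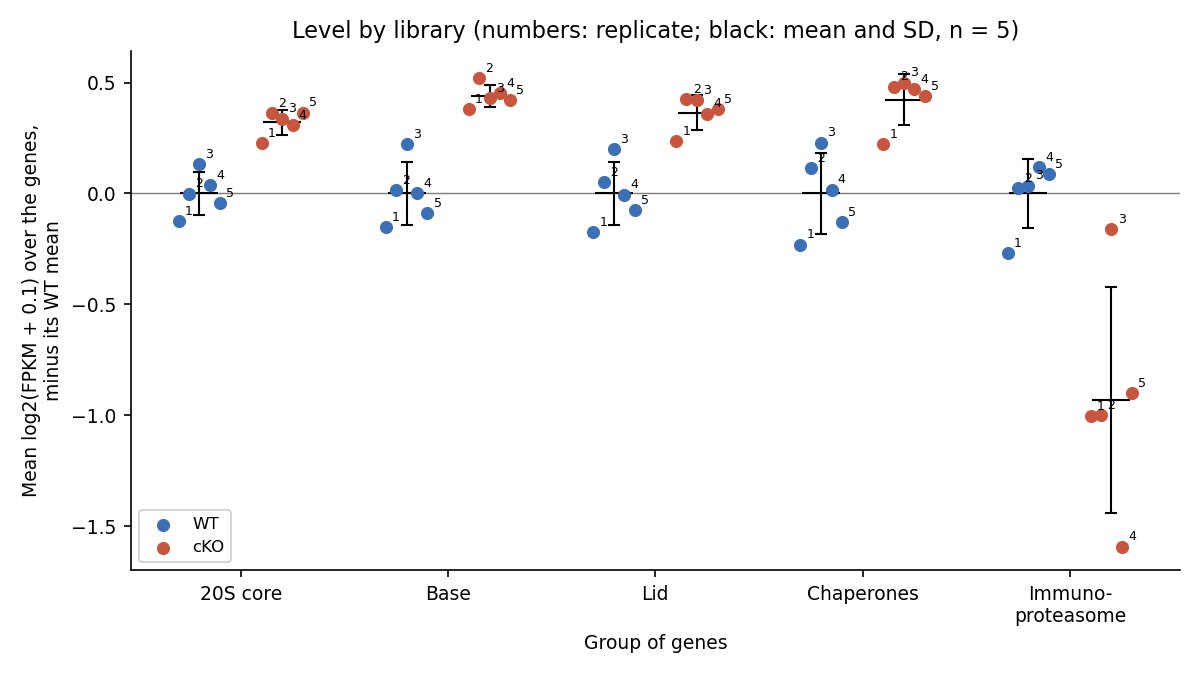
Mean log2 deviation from the WT mean (vertical axis) of the 20S core, base, lid, chaperones and immunoproteasome genes in each library, as points numbered by replicate, with the mean and SD of each label in black. For the core, the base and the lid all cKO points lie above all WT points, the chaperones overlap through cKO replicate 1, and the immunoproteasome points labelled cKO range from -1.59 to -0.16.

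As a share of all FPKM in a library, the 31 subunits took 0.637% ± 0.050 (SD, n = 5) in the libraries labelled WT and 0.795% ± 0.0291 in those labelled cKO. The summed level of the core went from 991 ± 67.0 to 1232 ± 41.9 FPKM, and that of the regulatory particle from 960.1 ± 96.8 to 1274 ± 51.4 FPKM. The regulatory particle over the core was thus 0.935 to 1.02 in the libraries labelled WT and 1.01 to 1.05 in those labelled cKO, which overlap. Levels of different genes depend on the gene lengths the authors used, and over the 31 subunits the Spearman correlation of annotated exon length with the WT mean was -0.61. This is a description across genes, which share libraries, and no order of levels between subunits was read from it.

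Proteasome genes outside the naming rule and the genes around them gave a mixed picture. Of 10 further proteasome parts tested, 4 were higher and 1 was lower. The shares were 31.7% and 23.7% among genes averaging 10 FPKM or more. The largest rise was in Usp14, a deubiquitinase that sits on the regulatory particle, from 19.2 ± 1.74 to 30.7 ± 3.94 FPKM (log2 difference 0.67, limma adjusted p = 3.35e-04). The one that fell was Pomp, the maturation factor of the core, from 24.4 ± 1.63 to 19.5 ± 2.50 FPKM (log2 difference -0.32, limma adjusted p = 0.0129), opposite in sign to the 14 core subunits it helps to mature. The groups of Pomp overlapped, with replicate 1 labelled cKO at 23.74 FPKM inside the WT range of 21.66 to 26.03 FPKM. Of the remaining regulatory particle subunits, the ubiquitin receptor Adrm1 rose (log2 difference 0.65, limma adjusted p = 3.62e-04) and the small lid subunit Sem1 gave -0.28 (limma adjusted p = 0.0536).

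Of 13 regulators of proteasome genes, 2 were higher and 5 lower, against 16.7% and 28.3% of all genes tested. Among genes averaging 10 FPKM or more these shares were 31.7% and 23.7%. The transcription factors of the antioxidant response element, Nfe2l1 (NRF1) and Nfe2l2 (NRF2), gave 0.09 (limma adjusted p = 0.514) and 0.06 (limma adjusted p = 0.516). Mafk, a small MAF partner, had the largest rise (log2 difference 0.45, limma adjusted p = 0.00176) and Bach2, a repressor that competes for the same partners, the largest fall (log2 difference -1.88, limma adjusted p = 3.62e-04), from 1.10 ± 0.143 to 0.242 ± 0.116 FPKM. Ddi2, the protease that activates NRF1, fell (log2 difference -0.58, limma adjusted p = 4.56e-04), as did Nfya, the subunit of NF-Y that contacts the CCAAT box (log2 difference -0.80, limma adjusted p = 0.00361). Ngly1, an enzyme also needed to activate NRF1, rose (log2 difference 0.36, limma adjusted p = 0.0169), and the other NF-Y subunits Nfyb and Nfyc gave 0.13 and -0.12 and did not pass. Adrm1, Sem1, Nfe2l1, Nfe2l2, Ddi2, Ngly1 and the NF-Y genes were named after their values were seen.

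Upstream of the proteasome, 2 of 6 ubiquitin supply genes were higher and 0 were lower. The count higher was near the share among genes averaging 10 FPKM or more, 31.7%. Uba1, an X-linked gene for the ubiquitin-activating enzyme, had the largest rise (log2 difference 0.35, limma adjusted p = 0.00112). Of 11 genes for shuttle factors and the VCP segregase with its adaptors, which bring substrates to the proteasome, 8 were higher and 1 was lower. Among genes averaging 10 FPKM or more, 31.7% were higher and 23.7% lower. The gene of this list that fell was Ubqln2, an X-linked shuttle factor, from 12.0 ± 1.05 to 6.15 ± 0.706 FPKM (log2 difference -0.95, limma adjusted p = 9.00e-05).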

How the data were processed

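Bulk RNA-seq of Lin- bone marrow cells was analysed in 10 libraries. The submitters' processing notes list cutadapt 1.9.1, HISAT2 2.0.1 and HTSeq 0.6.1 with GRCm39, and the authors deposited FPKM per gene, to 2 decimals. The annotation and gene lengths behind them are not given in the sources used here, and FPKM of genes with several transcripts depend on those lengths. Low values of genes with a single transcript were whole multiples of 1 fragment within 0.2 for 96.0 to 96.8% of values (40.0% by chance), which gave 13840000 to 18710000 fragments per library. All tested members had at least 333 fragments in each library, approximately.

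The test was limma 3.58.1 (lmFit, eBayes with trend) in R 4.3.3 applied to log2 values of FPKM with 0.1 added. It was two-sided, and p-values were adjusted by Benjamini and Hochberg's method across all 18742 genes that averaged 0.1 FPKM or more. FPKM are not counts, so DESeq2, the authors' tool, was not run. Ratios were tested by exact permutation in Python 3.11.15 with scipy 1.17.1. The limma step was run on simulated data in which each gene varied independently, so library shifts shared by many genes were not covered. Promoters are the 250 bases before the start of the canonical transcript in GENCODE vM39 on GRCm39. The members, lists and tests were chosen with earlier results of these data known. Values per library are given for the active-site genes, the largest rise and largest fall in each class, X-linked members and the immunoproteasome genes. In each other list, the largest rise and fall past the threshold are named. Some genes that this rule or the marker check would name are not reported here. Further members with library values, such as Psma7, Psmb4 and Psmg1, were chosen after their values were seen. The symbols Paaf1, Ahsp and Vpreb1 of the lists were not matched. No pair of libraries of one group agreed within sampling noise (the lowest chi-square per degree of freedom was 8.20).

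The alternatives were pseudocounts of 0.01 and 1, no filter or one at an average of 1 FPKM, scaling by median ratios, by quantiles or to one sum in all libraries, eBayes without its trend, a replicate block and leaving out each library. Xist above 1 FPKM was also used as a covariate. The comparison of the libraries without Xist was chosen after seeing the data.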

Additional observations from a re-analysis of the deposited data

Results flagged for a closer look

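In 102 groups of 5 libraries, one library lay far from the other 4 in 5 groups by Dixon's criterion, where chance would give about 5.1. Psma4 was lowest in WT replicate 1, at 50.83 FPKM against 59.56 to 61.49 FPKM in the others of that label. It was also lowest in replicate 1 of the libraries labelled cKO, at 61.68 FPKM against 70.71 to 73.30 FPKM. Psmd7 was at 81.40 FPKM in replicate 1 labelled cKO against 106.93 to 115.88 FPKM in the other four. Psme2b was at 70.14 FPKM in WT replicate 1 against 94.81 to 99.37 FPKM. The ratio of Psmb6 to Psmb9 was 4.04 in WT replicate 1 against 2.94 to 3.24 in the other libraries labelled WT. All 5 concern replicate 1 of either label, which was the lowest of its label for 25 (WT) and 17 (cKO) of the 31 subunits.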

How the results depend on the processing

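The count of 36 members higher stayed between 28 (the libraries without Xist) and 41 (median-ratio scaling) under the 21 alternatives, and 26 of the 36 passed in every one of them. All 36 were positive in every one. With 1 library left out the count was 31 to 40, members lower past the threshold 0 to 1, and members at 2-fold 0 to 0. The count lower became 1 with an equal sum per library (Psme2) and 1 with quantile normalization (Psme1). Without 1 library, the call lower was Psme2 (without cKO replicate 2) or Psme1 (without cKO replicate 3). The count at 2-fold became 2 with quantile normalization (Psma8 and Psmd9).

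Scaling moved the median of all genes from -0.11 to -0.01 by median ratios and to 0.10 by quantiles. The core median was 0.42 and 0.22 under these, or 0.42 and 0.12 above the median of all genes, against 0.42 in the reported fit. The median of the proteasome classes was 0.45 under median ratios. With 1 library left out, the medians were 0.31 to 0.40 for the proteasome classes, 0.28 to 0.34 for the core, 0.37 to 0.48 for the regulatory particle and 0.28 to 0.40 for the chaperones, and the log2 ratios 1.24 to 1.56 (Psmb5/Psmb8), 1.14 to 1.59 (Psmb6/Psmb9), 0.90 to 1.16 (Psmb7/Psmb10) and 0.91 to 1.09 (Psme3/Psme1). Some genes that did not pass changed sign, Psma7 to -0.031 with quantile normalization, Psmg4 to -0.049 without WT replicate 1 (up to 0.20 without replicate 1 labelled cKO) and Psme3ip1 to -0.00076 with an equal sum. The cause of these moves was not tested.

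The deviations of same-numbered libraries were weakly correlated at most (correlations -0.0103 to 0.117, 1 of 5 over 0.1). Weak correlations cannot decide whether the numbers pair the samples, and the labels do not say. Of 5 libraries each, 3 labelled WT and 2 labelled cKO correlated best with their own number. With the replicate block 38 members were higher. For the ratios, pairing by number gave differences of 1.38, 1.37, 1.01 and 0.99 with an exact sign-flip p of 0.0625 each, the smallest that 5 pairs allow. Depth limited Psmb11, which had at most 2 fragments in a library.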

Other observations

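Psma5-ps, a pseudogene copy of Psma5, was listed at 11.3 ± 0.832 FPKM (SD, n = 5) in the libraries labelled WT and 15.4 ± 1.06 FPKM in those labelled cKO, without overlap. Psma5 itself was at 92.9 ± 9.91 and 115 ± 7.84 FPKM, with overlapping groups (log2 difference 0.31, limma adjusted p = 0.0102). How the counting divided reads between the copies is not known, so both values are uncertain.

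Among the adaptors of the VCP segregase, Nploc4, Faf1 and Ubxn1 were higher in the libraries labelled cKO without overlap, with log2 differences of 0.53, 0.58 and 0.55. Vcp itself was at 68.8 ± 4.47 and 71.1 ± 3.46 FPKM, a difference of 0.05 (limma adjusted p = 0.547). Of the repressors that bind small MAF proteins, Bach1 fell alongside Bach2 (log2 difference -0.64, limma adjusted p = 0.00170), while the small MAF Mafg fell (log2 difference -0.56, limma adjusted p = 8.29e-04) and Mafk rose. These genes were named after their values were seen.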
